A study of Mus musculus with 39 samples.

Results

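The 7 genes described here were taken by symbol from the per-library count files, which list 46078 gene identifiers in all. 5 are protein-coding genes on chromosome 10 near *Tcf3*, the gene whose product E47 was removed in the mutants (*Tdg*, *Ndufa12*, *Btbd11*, *Nfyb* and *Nedd1*). The others are processed pseudogenes, *Gm9855* as a copy of *Tdg* and *Gm15920* as a copy of *Ndufa12*. They were chosen for their values in the comparisons of E47 mutant with control mice, so these comparisons are given for them as a description, with no test.

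E47 is one of the basic helix-loop-helix proteins encoded by *Tcf3*, and the study asked what its loss does to the response to glucocorticoids in liver and other tissues. RNA-seq was available for 39 libraries in 12 groups from male mice bred on a C57BL/6 background. The global knockout (E47KO, E47-/-) was set beside wildtype littermates (WT, E47+/+) in 33 libraries. Livers came from mice given 10 μg/ml dexamethasone (Dex) in the drinking water for 3 weeks (3 E47KO, 2 WT), from mice given 100 μg/ml corticosterone (Cort) for 3 weeks (4 E47KO, 4 WT) and from untreated mice (6 E47KO, 5 WT). Epididymal white adipose tissue (WAT; 2 E47KO, 2 WT) and quadriceps muscle (3 E47KO, 2 WT) came from mice after 3 weeks of the same Dex regimen. In the remaining experiment livers were taken 1 h after 1 mg/kg Dex. There the mutants were E47LKO mice (Albcre/+;E47fl/fl, 3 libraries), in which the albumin promoter drives Cre in hepatocytes only. Their 3 floxed controls carried no Cre, 2 being Alb+/+;E47fl/fl and 1 (replicate 1) Alb+/+;E47fl/+. The 1 h experiment thus held no wildtype library.

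A processed pseudogene arises when a spliced transcript is copied back into DNA and inserted elsewhere in the genome, so it carries the exons of its source joined without introns. *Tdg* encodes thymine DNA glycosylase, which cuts mispaired thymine and oxidised forms of methylcytosine out of DNA for base excision repair. *Ndufa12* encodes an accessory subunit of complex I, the entry point of the mitochondrial respiratory chain. *Nfyb* encodes a histone-fold subunit of the CCAAT-binding factor NF-Y, and *Nedd1* encodes the protein that brings the γ-tubulin ring complex to centrosomes and spindles. *Btbd11* encodes a protein with BTB and ankyrin repeat domains.

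The copies differ from their sources at few bases, which is shown first because every count of a copy rests on these bases. In the mm10 annotation *Gm9855* is a single exon of 1194 bases on the minus strand (chr10:42054113-42055306), 38.4 Mb from *Tcf3* and outside any other gene. It aligned without a gap to the coding sequence of *Tdg*, its stop codon included, with 9 mismatches (99.2% identity). Counted from the first coding base of *Tdg*, these are A98C, A855G, G877A, G879C, T993C, T1056C, G1084A, A1090G and G1101A. 8 of the 9 lie in the last 350 bases. *Gm15920* is a single exon of 402 bases on chromosome 5 (chr5:130188395-130188796, plus strand). It lies in an intron of *Rabgef1* on the same strand, 809 bases after the exon before it. It aligned to coding bases 37 to 438 of *Ndufa12* with 2 mismatches (99.5% identity), A135G and T414C counted from the first coding base of *Ndufa12*.

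The stretches that hold these differences are printed 5′ to 3′ on the strand of the gene, from the GENCODE transcripts on mm10, with the differing bases in capitals. The first and second pairs show the isolated base and the cluster of 3 in *Gm9855*, the third the last 5 differences, and the last pairs show both differences of *Gm15920*.
Tdg, chr10:82638833-82638861, plus strand: acagcaggtgcccgAagacgctcctgtcc
Gm9855, chr10:42055195-42055223, minus strand: acagcaggtgcccgCagacgctcctgtcc
Tdg, chr10:82647314-82647356, plus strand: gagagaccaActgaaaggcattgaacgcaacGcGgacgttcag
Gm9855, chr10:42054419-42054461, minus strand: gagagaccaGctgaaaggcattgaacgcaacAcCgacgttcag
Tdg, chr10:82648011-82648636, plus strand, across an exon junction: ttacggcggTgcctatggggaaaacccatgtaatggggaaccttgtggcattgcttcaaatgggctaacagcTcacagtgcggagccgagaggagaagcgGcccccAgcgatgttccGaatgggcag
Gm9855, chr10:42054197-42054323, minus strand: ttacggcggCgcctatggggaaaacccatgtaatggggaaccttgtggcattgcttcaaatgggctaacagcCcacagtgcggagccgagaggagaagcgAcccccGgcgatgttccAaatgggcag
Ndufa12, chr10:94199978-94200019, plus strand: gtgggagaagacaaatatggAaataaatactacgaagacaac
Gm15920, chr5:130188473-130188514, plus strand: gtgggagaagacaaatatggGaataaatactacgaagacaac
Ndufa12, chr10:94220819-94220855, plus strand: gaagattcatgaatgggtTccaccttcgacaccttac
Gm15920, chr5:130188754-130188790, plus strand: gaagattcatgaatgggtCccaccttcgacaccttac

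Most of each copy cannot be told apart from its source by a short read. Of the 1145 stretches of 50 bases in *Gm9855*, 876 (76.5%) also occur in a *Tdg* transcript, and of the 353 in *Gm15920*, 278 (78.8%) occur in an *Ndufa12* transcript. At 100 bases these shares were 61.3% and 59.1%. The deposited files list reads that aligned to several places apart from the gene rows, so the counts of *Tdg*, *Gm9855*, *Ndufa12* and *Gm15920* rest on the remaining reads and are uncertain as levels of the genes. 2 other *Tdg* copies in the annotation, *Gm5597* on chromosome 7 and *Tdg-ps* on chromosome 15, had 0 to 3 and 0 to 2 counts in the 39 libraries. In the libraries of untreated and 1 h Dex liver, which keep the strand, 99.7% to 100% of the counts of *Gm9855* and *Gm15920* were on the strand of the gene.

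Depth ranged from 15513941 to 54560884 counts in genes per library. Levels are CPM, the count of a gene as a share of its library's total, on the usual per-million-reads scale, after TMM scaling over all 39 libraries. Hepatocyte markers summed to at least 78305 CPM in every liver library, adipocyte markers to at least 24617 CPM in WAT and muscle markers to at least 113854 CPM in muscle, as labelled. The count of *Tcf3* does not check the genotypes, since E12, the other product of the gene, is made from most of the same exons. *Tcf3* had 8.60 to 20.7 CPM in the E47KO libraries and 8.55 to 18.8 CPM in WT. In tissue pieces, fewer cells of a type and less RNA per cell cannot be told apart.

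Counted over the members, the E47KO and WT libraries did not overlap for 5 of 7 in Dex livers (15.0% of all genes tested), 5 of 7 in Cort livers (6.36%), 4 of 7 in untreated livers (0.439%), 5 of 7 in WAT (32.6%) and 5 of 7 in muscle (15.6%). In the 1 h Dex livers the E47LKO and floxed libraries overlapped for all 6 members tested (8.50% of all genes did not). Few genes passed an adjusted p of 0.05 in edgeR's quasi-likelihood test between genotypes. These were 1 gene in Dex livers (0.00752% of 13300 tested), 4 in Cort livers (0.0274% of 14588), 4 in untreated livers (0.0288% of 13904) and 2 in muscle (0.0134% of 14962). None passed in WAT (699 genes at an unadjusted p under 0.05, 37 called by DESeq2) or in the 1 h Dex livers (466 and 6). The members were chosen on these contrasts, so their share is given beside the background and nothing is read from it.

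*Gm9855* was read in every E47KO library and at 0 to 2 counts in every WT library. In E47KO Dex livers it had 4.22, 4.44 and 3.23 CPM (83, 93 and 56 counts), against 0 and 1 counts in the WT livers. In E47KO Cort livers it had 3.77, 3.34, 3.27 and 3.03 CPM, against 0, 0, 0 and 1 counts in WT. In untreated livers the 6 E47KO libraries ranged from 3.00 to 4.89 CPM with a median of 3.50 CPM, and the 5 WT libraries held 0, 0, 1, 0 and 1 counts. The liver groups did not overlap under any of the treatments.

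Outside the liver *Gm9855* followed the genotype in the same way. In WAT the E47KO libraries had 0.929 and 0.915 CPM (61 and 64 counts) and both WT libraries had 0 counts. In muscle the E47KO libraries had 2.94, 3.47 and 3.43 CPM, against 2 and 1 counts in WT. The level in E47KO WAT was thus below that of every E47KO library of liver and muscle. With 3 counts per library taken as the floor for WT, the E47KO mean of *Gm9855* exceeded it by at least 22.8-fold in Dex livers, 50.5-fold in Cort livers, 38.3-fold in untreated livers, 18.2-fold in WAT and 47.2-fold in muscle.

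*Tdg*, 2.22 Mb from *Tcf3* (chr10:82629828-82650799, plus strand, its 3′ end overlapping *Glt8d2* on the other strand), was lower in E47KO than in WT in each of the 5 experiments. In Dex livers it had 7.12, 6.78 and 6.29 CPM in E47KO and 14.1 and 8.70 CPM in WT. In Cort livers it had 3.70, 4.79, 4.46 and 4.95 CPM in E47KO and 10.2, 11, 12.7 and 10.5 CPM in WT. In untreated livers the E47KO libraries ranged from 2.86 to 5.19 CPM (median 4.48) and the WT libraries had 8.18, 9.59, 12.3, 11.8 and 12.8 CPM. No E47KO liver reached the lowest WT liver of its experiment, and the gap was narrowest in Dex livers.

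The other tissues showed the same order for *Tdg*. In WAT it had 1.05 and 1.29 CPM in E47KO and 5.59 and 5.71 CPM in WT. In muscle it had 4.17, 3.88 and 3.65 CPM in E47KO and 10.7 and 10.9 CPM in WT. The log2 fold change of *Tdg* was -0.76 (SE 0.24) in Dex livers, -1.32 (SE 0.12) in Cort livers, -1.35 (SE 0.17) in untreated livers, -2.28 (SE 0.20) in WAT and -1.45 (SE 0.14) in muscle. Without WT replicate 2 of the Dex livers the value there was -1.07, and without WT replicate 1 it was -0.36. *Tdg* and *Gm9855* were the only genes of the 11846 tested in all 5 experiments whose E47KO and WT libraries lay apart in 1 direction throughout. Both were chosen on these values, and *Gm9855* passed the filter on low counts through its E47KO libraries, so nothing is read from this.

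**Figure D1:**
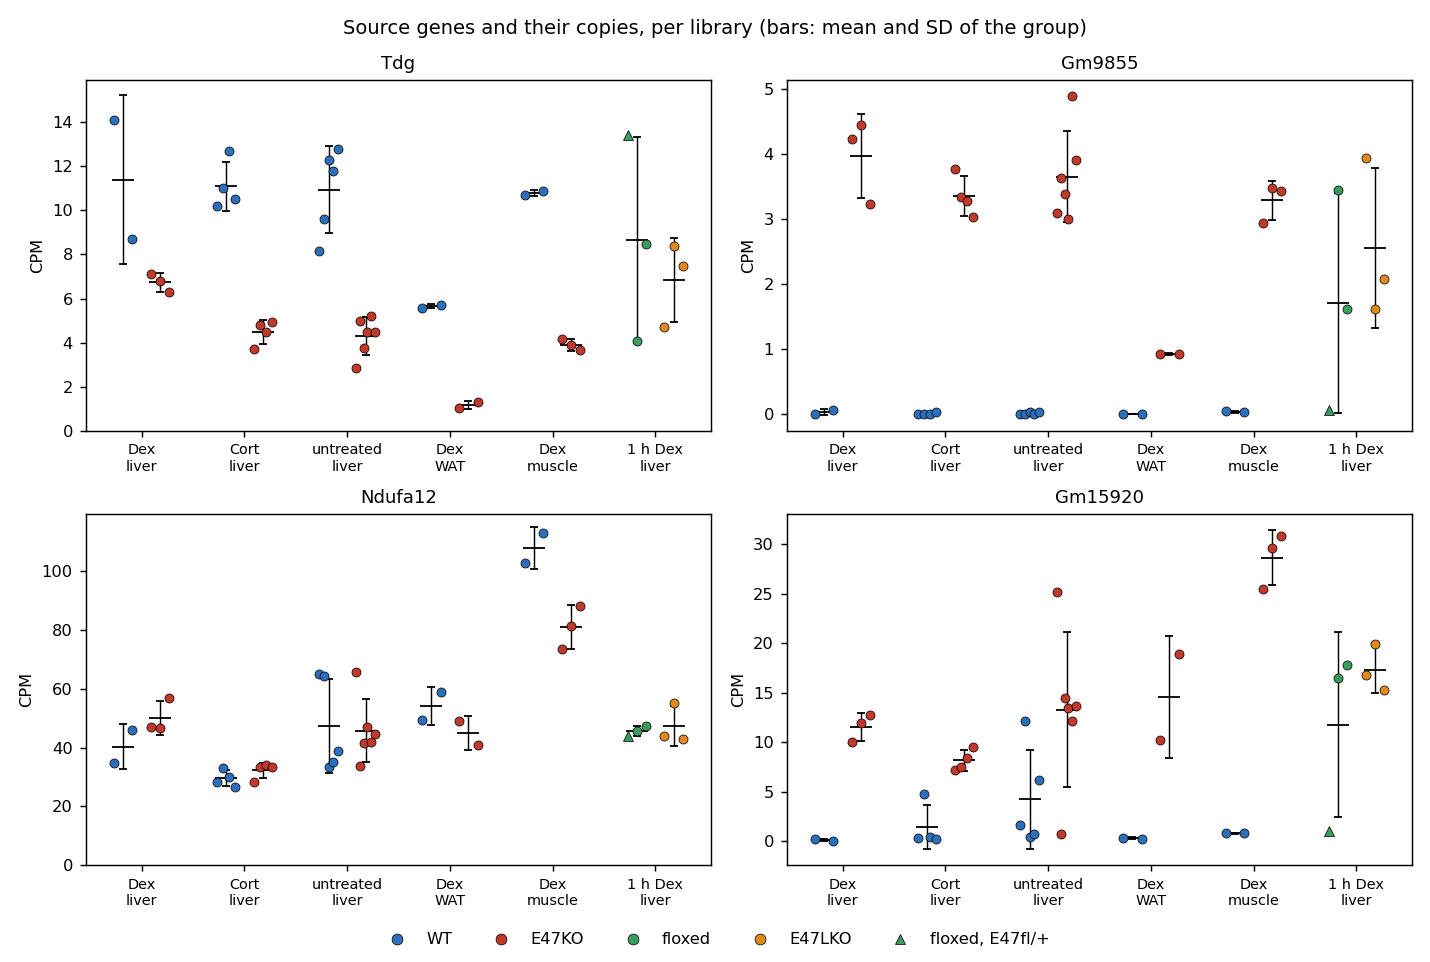
Levels of *Tdg*, *Gm9855*, *Ndufa12* and *Gm15920* in CPM (vertical axes, linear) for each of the 39 libraries, by experiment, with the mean and SD of each group in black. *Gm9855* lay at 0 to 0.064 CPM in WT and at 0.915 to 4.89 CPM in E47KO, and the triangle marks the E47fl/+ control, at 0.0664 CPM.

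The counts of *Tdg* and *Gm9855* were also read as a pair, with the share taken by the copy. In the 18 E47KO libraries *Gm9855* took 33.9% to 51.9% of the pair, with a median of 42.1%. In WT its share was 0% to 0.73%. Where the WT share was 0, as in the first Cort library with 476 counts of *Tdg*, the exact 95% binomial interval reached 0.772%, which covers counting error only. The summed level of *Tdg* and *Gm9855* was below WT in all E47KO libraries of Cort liver (7.47 to 8.13 against 10.2 to 12.7 CPM), WAT (1.98 to 2.20 against 5.59 to 5.71 CPM) and muscle (7.09 to 7.34 against 10.7 to 10.9 CPM). It overlapped in Dex liver (9.52 to 11.3 against 8.76 to 14.1 CPM) and untreated liver (5.94 to 10.1 against 8.18 to 12.8 CPM). Per kilobase of annotated exon, the mean level in E47KO Dex livers was 3.32 CPM for *Gm9855* and 1.25 CPM for *Tdg*. The length over which reads can be told apart is not the annotated length, so these values do not rank the pair.

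*Gm15920* was mostly high in E47KO and low in WT, but it did not follow the genotype in every library. In E47KO Dex livers it had 10.0, 11.9 and 12.8 CPM, against 0.209 and 0.064 CPM in WT. In WAT it had 10.2 and 18.9 CPM in E47KO and 0.392 and 0.280 CPM in WT. In muscle it had 25.5, 29.6 and 30.8 CPM in E47KO and 0.830 and 0.801 CPM in WT. These 3 tissues of Dex-treated mice held no overlap between genotypes.

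In the livers of the other treatments 4 libraries stood apart from the rest of their genotype. In Cort livers E47KO had 7.21, 7.54, 8.42 and 9.52 CPM. WT had 0.322, 0.458 and 0.208 CPM in 3 libraries and 4.83 CPM (252 counts) in replicate 2, so the Cort genotypes did not overlap. In untreated livers the E47KO libraries had 25.2, 14.5, 13.5, 12.2 and 13.7 CPM, and replicate 2 had 0.723 CPM (24 counts). The WT livers had 1.61, 0.448 and 0.741 CPM in 3 libraries, 12.2 CPM in replicate 2 and 6.24 CPM in replicate 5, so the untreated genotypes overlapped. In that E47KO replicate 2 *Gm9855* stood at 3.62 CPM, within the range of the other E47KO livers, and in the WT livers with 4.83, 12.2 and 6.24 CPM of *Gm15920* the counts of *Gm9855* were 0, 0 and 1.

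The log2 fold change of *Gm15920* in E47KO was 6.28 (SE 0.39) in Dex livers, 5.41 (SE 0.42) in WAT and 5.14 (SE 0.14) in muscle. The Dex liver value rests on 4 and 1 counts in WT, and it became 7.36 when WT replicate 1 was left out and 5.75 when WT replicate 2 was. The log2 fold change was 2.45 (SE 0.87) in Cort livers and 1.65 (SE 0.84) in untreated livers. Without WT replicate 2 the Cort value was 4.60. Without E47KO replicate 2 the untreated value was 1.90, and without WT replicate 2 it was 2.56. *Rabgef1*, the gene around *Gm15920*, had a mean of 28.8 ± 6.88 CPM (SD, n = 3) in E47KO and 28.1 ± 4.42 CPM (SD, n = 2) in WT Dex livers. In untreated livers its means were 14.6 ± 1.64 CPM (SD, n = 6) and 14.9 ± 1.33 CPM (SD, n = 5).

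*Ndufa12*, 13.8 Mb from *Tcf3* (chr10:94198720-94221443, plus strand), showed no common direction. In Dex livers it had 47, 46.6 and 56.8 CPM in E47KO and 34.9 and 45.9 CPM in WT (log2 fold change 0.32, SE 0.16). The nearest libraries stood at 46.6 and 45.9 CPM, and the value became 0.14 when WT replicate 1 was left out and 0.52 when WT replicate 2 was. In muscle it had 73.6, 81.3 and 88.3 CPM in E47KO and 103 and 113 CPM in WT (log2 fold change -0.40, SE 0.11). In WAT it had 49.2 and 40.9 CPM in E47KO and 49.5 and 58.8 CPM in WT (log2 fold change -0.27, SE 0.14), which was -0.42 without E47KO replicate 2 and -0.14 without E47KO replicate 3. The genotypes thus lay apart upwards in Dex liver and downwards in muscle and WAT. In Cort livers (28.2 to 34.0 against 26.8 to 33.1 CPM) and untreated livers (33.8 to 65.7 against 33.3 to 65.1 CPM) they overlapped. The library numbers of the untreated livers fall into 2 series, the first with 1 E47KO and 2 WT libraries and the second with 5 and 3. *Ndufa12* had 64.3 to 65.7 CPM in the first and 33.3 to 46.9 CPM in the second. Its log2 fold change in untreated livers was -0.05 without a series term and 0.16 with the series as a covariate, where *Tdg* had -1.48 and *Gm15920* 2.06.

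As a pair with *Ndufa12*, *Gm15920* took 17.2% to 31.6% of the counts in 17 of the 18 E47KO libraries and 2.09% (95% interval 1.35% to 3.10%) in untreated E47KO replicate 2. In WT the share was 12.7% (11.3% to 14.3%) in Cort replicate 2, 16.0% (14.4% to 17.6%) in untreated replicate 2 and 13.8% (12.1% to 15.7%) in untreated replicate 5. The other WT libraries lay between 0.139% and 2.41%. The summed level of *Ndufa12* and *Gm15920* in muscle was 99.1 to 119 CPM in E47KO and 104 to 114 CPM in WT, so the difference seen in *Ndufa12* alone was not seen in the sum. In WAT the sum was 59.3 to 59.8 CPM in E47KO and 49.9 to 59 CPM in WT, so it lay apart upwards where *Ndufa12* alone lay apart downwards. In Dex livers the sum was 57.0 to 69.7 CPM in E47KO and 35.2 to 45.9 CPM in WT. The sums overlapped in Cort and untreated livers. Per kilobase of annotated exon, the mean levels in E47KO Dex livers were 28.8 CPM for *Gm15920* and 32.0 CPM for *Ndufa12*. The same limit of length holds, so these values do not rank the pair either.

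**Figure D2:**
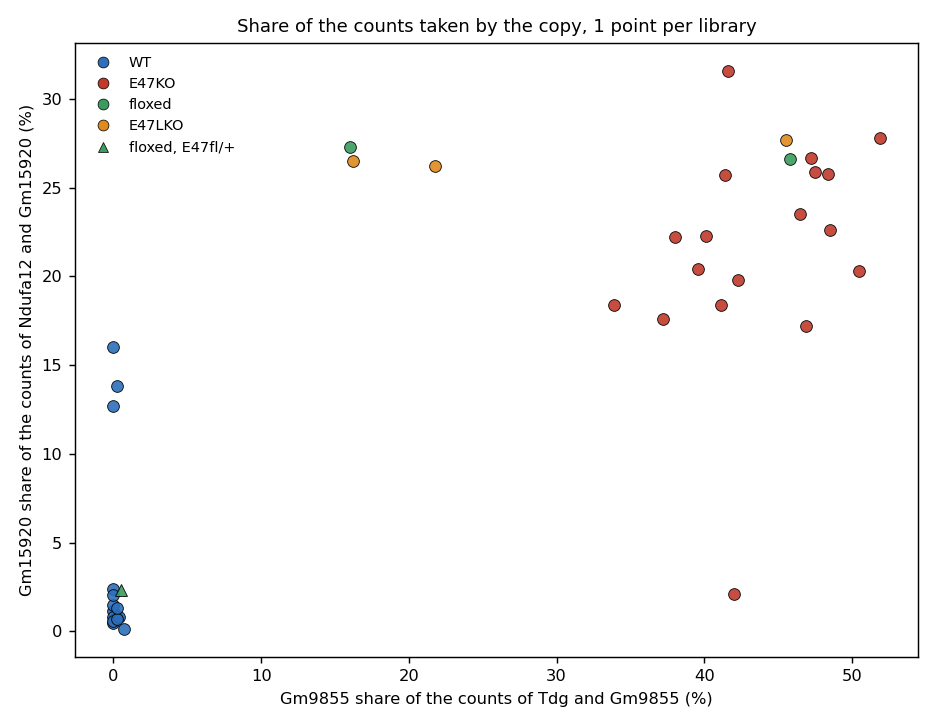
Share of the counts taken by the copy in each of the 39 libraries, for *Gm9855* in the pair with *Tdg* (horizontal axis, percent) and for *Gm15920* in the pair with *Ndufa12* (vertical axis, percent). E47KO libraries lie at 33.9% to 51.9% on the horizontal axis and WT libraries at 0% to 0.73%, while 3 WT libraries at 12.7% to 16.0% and 1 E47KO library at 2.09% on the vertical axis stand apart from their genotype.

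The floxed alleles gave a further comparison, since the 1 h Dex controls carried them without Cre. The E47fl/+ control had 1 count of *Gm9855* (0.0664 CPM), 13.4 CPM of *Tdg* and 1.06 CPM of *Gm15920*. The E47fl/fl controls had 3.44 and 1.61 CPM of *Gm9855*, 4.07 and 8.46 CPM of *Tdg*, and 16.5 and 17.8 CPM of *Gm15920*. The 3 E47LKO livers had 3.94, 1.62 and 2.08 CPM of *Gm9855*, 4.72, 8.39 and 7.47 CPM of *Tdg*, and 16.8, 19.9 and 15.3 CPM of *Gm15920*. All 5 libraries homozygous for the floxed allele thus had counts assigned to both copies, with or without Cre, and the E47fl/+ library resembled WT in its low counts of both.

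Within these 5 libraries the share of *Gm9855* in its pair took separate values. It was 45.8% (36.6% to 55.2%) in floxed replicate 2 and 45.5% (36.5% to 54.8%) in E47LKO replicate 1. It was 16.0% (10.7% to 22.5%) in floxed replicate 3, 16.2% (10.4% to 23.5%) in E47LKO replicate 2 and 21.8% (15.4% to 29.3%) in E47LKO replicate 3. The intervals of the upper values do not reach those of the lower ones, and each set held a control and a mutant. The share of *Gm15920* was 26.2% to 27.7% in all 5 and 2.35% (1.35% to 3.79%) in the E47fl/+ control. Between E47LKO and all 3 floxed controls the log2 fold change was 0.58 (SE 0.79) for *Gm9855*, 0.56 (SE 0.67) for *Gm15920* and -0.31 (SE 0.39) for *Tdg*. Without the E47fl/+ control these values were 0.02, 0.02 and 0.13, and without floxed replicate 2 that of *Gm9855* was 1.58.

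*Btbd11*, 5.10 Mb from *Tcf3* (chr10:85386814-85660292, plus strand), was a gene of few counts that stood lower in E47KO. In Dex livers all 3 E47KO libraries had 0 counts, against 15 and 20 counts in WT (0.782 and 1.28 CPM), which is at least 6.60-fold lower at a floor of 3 counts per library. In Cort livers E47KO had 5, 3, 4 and 3 counts and WT had 20, 18, 25 and 24. In untreated livers E47KO had 0 to 6 counts (up to 0.181 CPM) and WT had 13 to 36 (0.344 to 1.07 CPM). The genotypes lay apart in the livers of all 3 treatments. The log2 fold change was -2.38 (SE 0.32) in Cort and -2.73 (SE 0.45) in untreated livers.

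In WAT *Btbd11* had 0.411 and 0.157 CPM in E47KO and 0.654 and 0.542 CPM in WT, a log2 fold change of -1.08 (SE 0.54). It was -1.93 without E47KO replicate 2 and -0.54 without E47KO replicate 3. In muscle the libraries met, with 0.330, 0.563 and 0.245 CPM in E47KO and 0.553 and 0.726 CPM in WT. In the 1 h Dex livers *Btbd11* did not pass the filter on low counts. The E47LKO livers had 3, 1 and 9 counts and the floxed livers had 8, 2 and 10. E47LKO replicate 1 and floxed replicate 2, the libraries with the upper share of *Gm9855*, had 3 and 2 counts of *Btbd11*, and E47LKO replicate 2, with a lower share, had 1.

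Summed B cell markers were also lower in E47KO, beside *Btbd11*, in Dex and Cort livers. The 5 markers summed to 0.346 to 0.559 CPM in E47KO and 1.67 to 5.69 CPM in WT Dex livers, and to 0.319 to 0.851 against 0.885 to 2.06 CPM in Cort livers. In untreated livers the sums were 1.75 to 10.4 and 6.62 to 26.4 CPM, so the groups overlapped. *Cd79a*, *Cd79b*, *Ms4a1*, *Pax5* and *Ighm* made up the list, of which at most 1 reached a mean of 1 CPM in any group. In muscle the sums were 7.21 to 29.4 CPM in E47KO and 40.3 to 66.4 CPM in WT, which lay apart, and in WAT, 38.3 to 52.4 against 31.3 to 54.8 CPM, they overlapped. The part of these cells in the values of *Btbd11* was not tested.

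*Nfyb*, 2.33 Mb from *Tcf3* (chr10:82748701-82764144, minus strand), was lower in E47KO in the untreated livers only among the 5 experiments. There the E47KO libraries ranged from 19.2 to 25.3 CPM (median 22.5) and the WT libraries had 28.2, 35.4, 30.5, 27.1 and 30.7 CPM, a log2 fold change of -0.45 (SE 0.10). The groups overlapped in Dex livers (18.8 to 23.8 against 20 to 22.2 CPM), Cort livers (23.2 to 36.8 against 23.4 to 31.6 CPM), WAT (14.7 to 17.3 against 14.3 to 16.3 CPM) and muscle (31.3 to 40.4 against 28.1 to 31.5 CPM). The difference of the effect between Cort and untreated liver was 0.59 (SE 0.18) on the log2 scale. It is built from the comparisons that chose the members, so it is a description. Over all genes, 0.00626% of 15976 passed edgeR's quasi-likelihood test of this difference, *Nfyb* not among them. In the 1 h Dex livers the E47fl/+ control had 29.1 CPM, and the E47fl/fl and E47LKO libraries had 18.7 to 23.1 CPM.

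*Nedd1*, 12.3 Mb from *Tcf3* (chr10:92684746-92722420, minus strand), stood apart in muscle. It had 12.8, 12.1 and 11.8 CPM in E47KO and 20.2 and 26.1 CPM in WT muscle, a log2 fold change of -0.90 (SE 0.13). The 6 adipocyte markers also lay apart in muscle, summing to 420 to 558 CPM in E47KO and 157 to 227 CPM in WT, with all 6 at a mean of 1 CPM or more in both groups. Their part in the muscle values of the members and their neighbours was not tested. In Cort livers E47KO had 11.7, 9.12, 12.0 and 12.5 CPM and WT 16.7, 12.5, 14.6 and 14.7 CPM, so the groups lay apart by less than the rounding (log2 fold change -0.38, SE 0.13). In untreated livers the means were 19.2 ± 4.48 CPM (SD, n = 6) and 19.2 ± 3.05 CPM (SD, n = 5). In Dex livers (29.7 to 31.6 against 28 to 41.5 CPM) and WAT (5.54 to 6.84 against 6.67 to 7.16 CPM) the groups overlapped. The difference of the effect between Dex liver and muscle was 0.76 (SE 0.24), likewise a description.

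**Figure D3:**
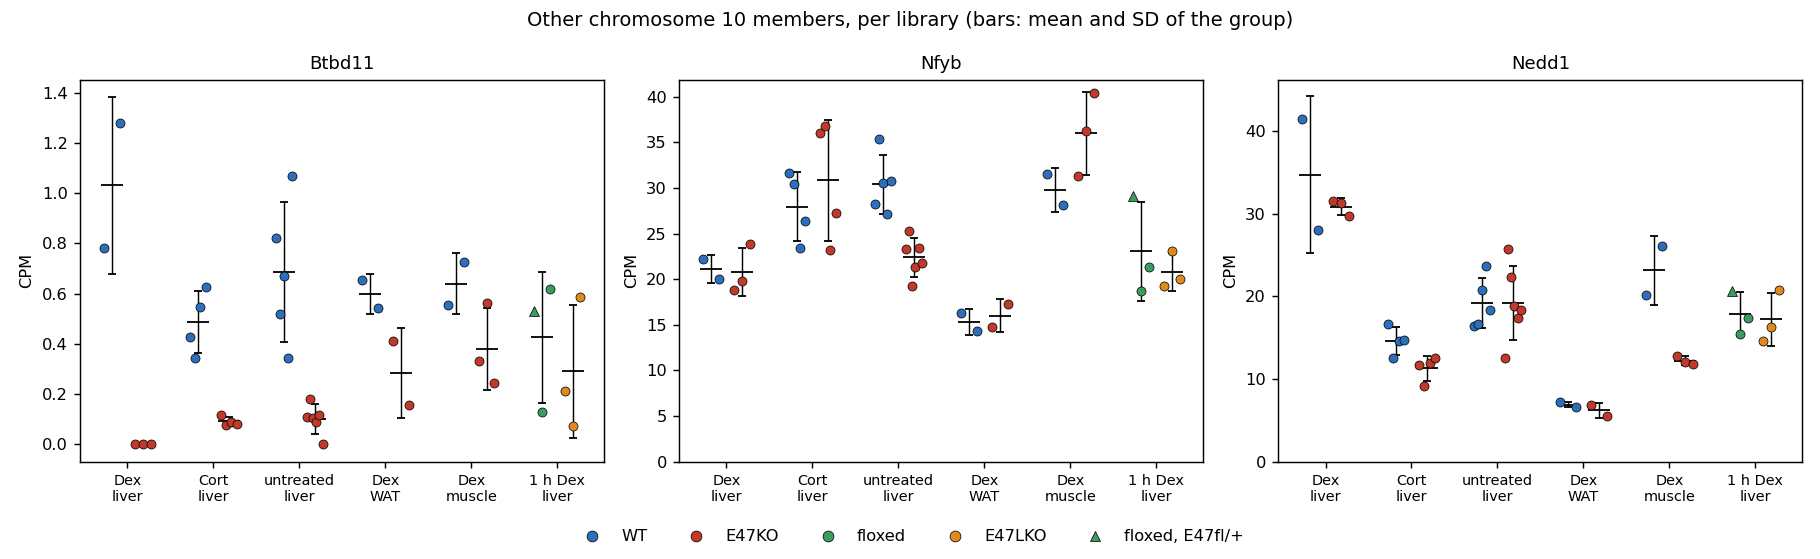
Levels of *Btbd11*, *Nfyb* and *Nedd1* in CPM (vertical axes, linear) for each of the 39 libraries, by experiment, with the mean and SD of each group in black. *Btbd11* lay at 0 CPM in E47KO and at 0.782 and 1.28 CPM in WT Dex livers, and *Nedd1* lay at 11.8 to 12.8 CPM in E47KO and 20.2 and 26.1 CPM in WT muscle.

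The genes between and around the members were set out by their distance from *Tcf3*, counting those whose middle lies within 20 Mb of its middle and leaving out the members. An unadjusted p under 0.05 was seen for 19 of 296 such genes in Dex livers (6.42%, against 2.98% on other chromosomes), 43 of 314 in Cort livers (13.7% against 9.68%) and 24 of 302 in untreated livers (7.95% against 3.49%). In WAT it was 24 of 343 (7% against 4.25%) and in muscle 22 of 322 (6.83% against 3.85%). In the 1 h Dex livers it was 10 of 277 (3.61% against 3.70%). Their median absolute log2 fold change was 0.13 to 0.15 in the 5 global experiments, against 0.12 to 0.14 on other chromosomes. None of these neighbours passed the adjusted threshold in any of the 6 experiments. Of 18261 genes tested in any global experiment, members included, 83 lay apart in the same direction in at least 3 of the 5. Of these 83, 9 were among the 393 genes considered within 20 Mb of *Tcf3*. In at least 4 experiments it was 6 genes, 4 of them within 20 Mb. Members made up 4 of the 6 and were chosen on these values, so nothing is read from this.

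**Figure D4:**
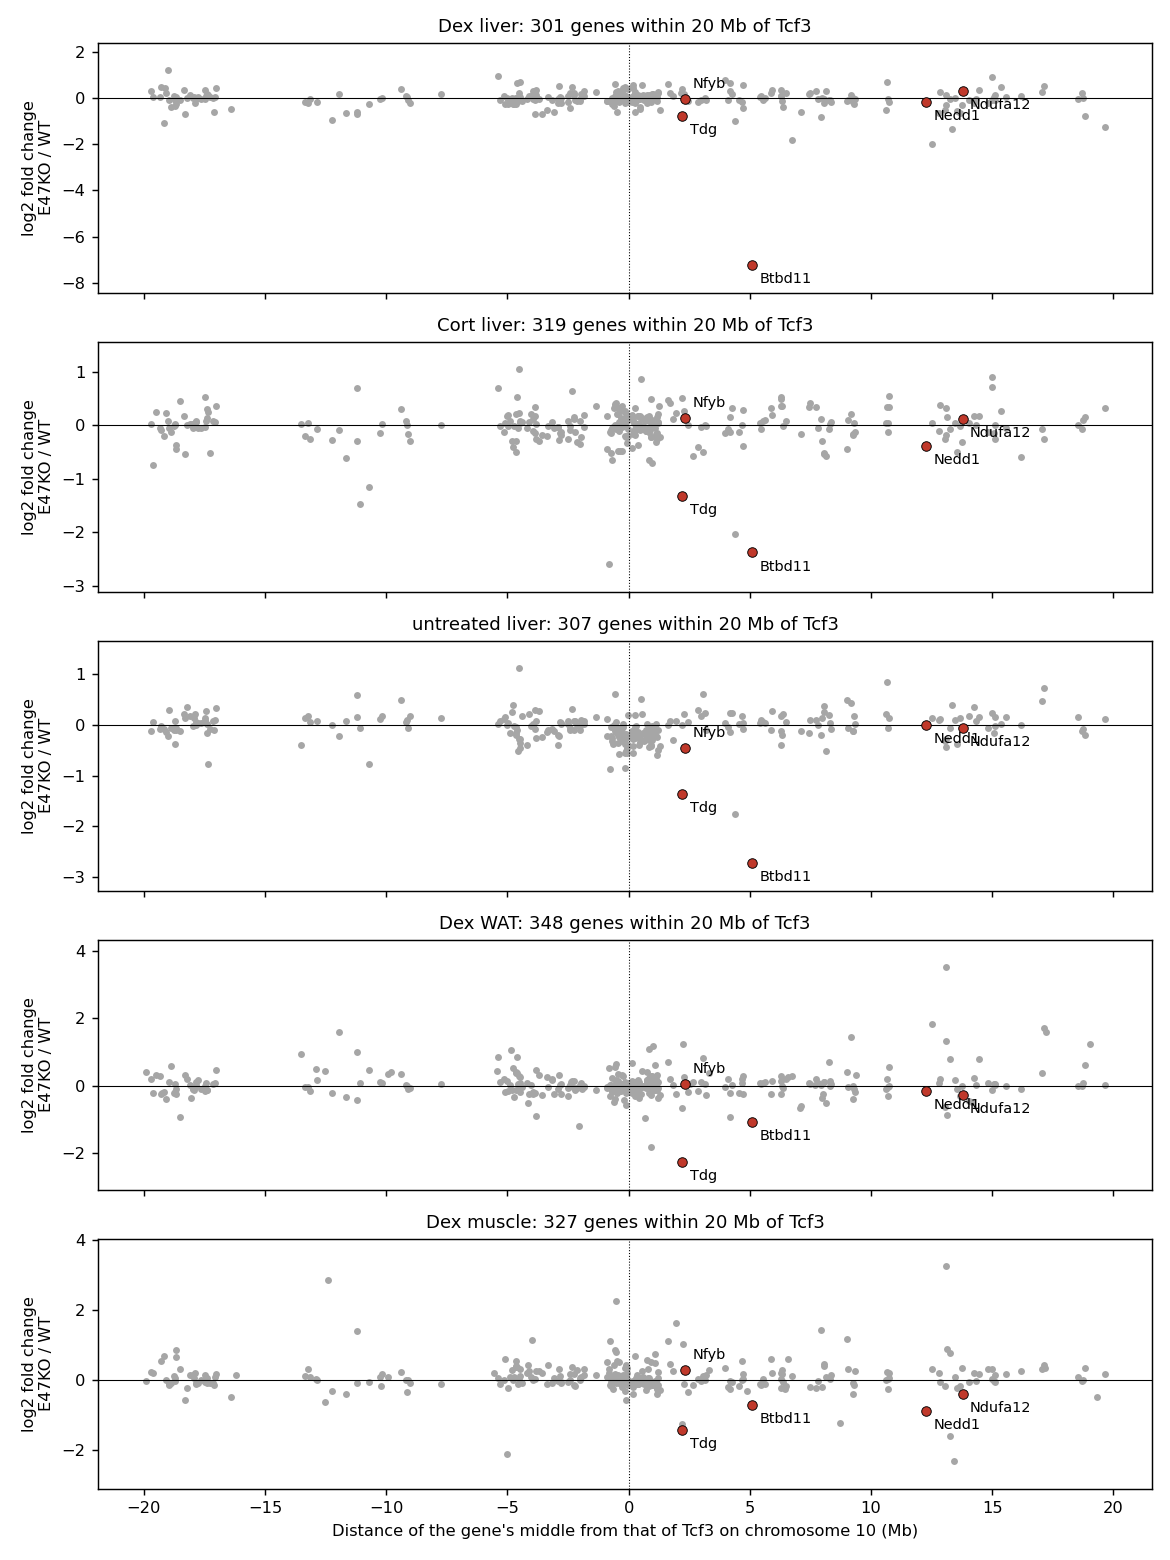
Log2 fold change of E47KO over WT (vertical axis) for each tested gene within 20 Mb of *Tcf3* on chromosome 10, against the distance of its middle from that of *Tcf3* in Mb (horizontal axis), with 1 panel for each of the 5 global experiments. The 5 members on this stretch are red and labelled, and *Tdg* lies below 0 in all panels, from -0.76 to -2.28.

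By the rule for named genes, up to 3 neighbours were named per global experiment, those with the widest differences. Their small number and their change between experiments follow in part from this limit. *Rfx4*, 4.41 Mb from *Tcf3* and between *Tdg* and *Btbd11*, encodes a transcription factor of the RFX family. It was among them in all 3 liver experiments, with 1.15 ± 0.423 CPM (SD, n = 3) against 2.33 ± 0.397 (SD, n = 2) in Dex livers, 0.590 ± 0.292 (SD, n = 4) against 2.4 ± 0.267 (SD, n = 4) in Cort livers and 1.12 ± 0.878 (SD, n = 6) against 3.80 ± 1.04 (SD, n = 5) in untreated livers. Its adjusted p in edgeR's test was 0.999, 0.184 and 0.965. *Hal*, which encodes histidine ammonia-lyase and lies 13.1 Mb away, was higher in E47KO WAT (log2 fold change 3.52, SE 0.61) and muscle (3.25, SE 0.74), with adjusted p of 0.977 and 0.668 in edgeR's test. The others were *Cfap54*, with opposite signs in Dex liver (-1.99, SE 0.54) and WAT (1.82, SE 0.69), and *Adamts14*, *Shc2*, *Cdk1*, *Ikbip*, *Rexo1*, *Gipc3*, *Usp44* and *Cfd*. Apart from *Cfap54*, each of these was among the 3 widest of 1 experiment, which does not mean that it differed in no other. *Ikbip*, named in untreated livers, also lay above WT in Dex livers (1.42 to 2.1 against 0.959 to 1.2 CPM) and WAT (10.6 to 12.9 against 10.1 to 10.2 CPM). It overlapped in Cort livers and muscle. *Cfd*, which encodes adipsin and is known from adipocytes, was among the named neighbours in muscle, with 99.7 ± 30.9 CPM (SD, n = 3) against 21.6 ± 21.8 CPM (SD, n = 2), beside the adipocyte markers that lay apart there.

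The levels of the members differed between tissues. The choice of members did not use these differences, but they are averaged over both genotypes and so include the E47KO values that it used. Over both genotypes of the Dex-treated mice, edgeR's quasi-likelihood test on 14 libraries called 76.4% of 18113 genes between liver and muscle, 75.4% between liver and WAT and 77.3% between muscle and WAT. *Ndufa12* was lower in liver than in muscle (log2 difference -1.18, SE 0.11, edgeR adjusted p 5.58e-07) and higher in muscle than in WAT (0.99, SE 0.11, edgeR adjusted p 4.78e-06). *Nfyb* was likewise highest in muscle, by 0.77 over liver (liver minus muscle -0.77, SE 0.10, edgeR adjusted p 1.73e-05) and by 1.13 over WAT (SE 0.11, edgeR adjusted p 8.03e-07). *Nedd1* was highest in liver, with log2 differences of 0.84 over muscle (SE 0.12, edgeR adjusted p 4.24e-05) and 2.27 over WAT (SE 0.14, edgeR adjusted p 1.43e-08). In the WT libraries alone (2 per tissue), the means of *Ndufa12* in liver, muscle and WAT were 40.4, 108 and 54.1 CPM. Those of *Nfyb* were 21.1, 29.8 and 15.3 CPM, and those of *Nedd1* 34.7, 23.2 and 6.92 CPM.

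*Tdg* was lowest in WAT in both genotypes, by more in E47KO. Its means in liver, muscle and WAT were 11.4, 10.8 and 5.65 CPM in WT and 6.73, 3.9 and 1.17 CPM in E47KO. Over both genotypes it was 1.72 (SE 0.15) higher on the log2 scale in liver than in WAT (edgeR adjusted p 4.83e-07) and 1.40 (SE 0.15) higher in muscle than in WAT (edgeR adjusted p 2.33e-06), while liver and muscle differed by 0.31 (SE 0.14, edgeR adjusted p 0.0535). That difference between liver and muscle passed without WT Dex liver replicate 2 (0.46, edgeR adjusted p 0.00357) or E47KO Dex liver replicate 3 (0.34, edgeR adjusted p 0.0497) and with DESeq2 (0.31, adjusted p 0.0444), and was 0.10 without WT Dex liver replicate 1 (edgeR adjusted p 0.478). *Gm15920* was read mainly in E47KO, where it had 25.5 to 30.8 CPM in muscle, above the 10.0 to 12.8 CPM in liver and the 10.2 and 18.9 CPM in WAT, and liver and WAT overlapped. WT Dex livers held 4 and 1 counts of it, so no fold over both genotypes is given. *Gm9855* and *Btbd11* had groups at 0 counts, so no fold between tissues is given for them either. Some liver and muscle libraries carry the same number in the names of their deposited tables, taken here as that of the mouse. With this number as a block in limma voom, *Ndufa12*, *Nfyb* and *Nedd1* kept their calls between liver and muscle, and *Tdg* passed (0.32, limma adjusted p 0.0343).

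The genotype effect itself was compared between tissues in the same model, and no member passed edgeR's test (0 of 18113 genes called for liver against muscle with 834 at an unadjusted p under 0.05 and 38 called by DESeq2, and 0 for liver against WAT with 592 and 6). These differences are built from the comparisons that chose the members, so for the members they are a description. The effect on *Tdg* was 1.5 (SE 0.30) less negative in liver than in WAT. For *Ndufa12* the effect differed by 0.73 (SE 0.21) between liver and muscle.

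Between Cort and untreated livers, 51.9% of 15976 genes differed in edgeR's quasi-likelihood test, and the treatment cannot be told apart from the experiment, since the Cort libraries, labelled stranded, split their counts evenly over the strands and the untreated libraries did not. *Ndufa12* (log2 difference -0.61, SE 0.13, edgeR adjusted p 0.000702) and *Nedd1* (-0.60, SE 0.12, edgeR adjusted p 0.000217) were lower in Cort livers. *Tdg* (0.02, SE 0.12), *Nfyb* (0.15, SE 0.09), *Gm15920* (-1.12, SE 0.60) and *Btbd11* (-0.33, SE 0.32) did not pass. *Gm15920* depended on single WT libraries, at -2.16 without WT Cort replicate 2 (edgeR adjusted p 0.00536) and -0.66 without WT untreated replicate 2 (edgeR adjusted p 0.345). *Nfyb* passed without E47KO Cort replicate 3 (0.21, edgeR adjusted p 0.0388). The untreated livers of the first library series had 64.3 to 65.7 CPM of *Ndufa12* and 12.6 to 16.7 CPM of *Nedd1*, and those of the second had 33.3 to 46.9 and 17.4 to 25.8 CPM. The Cort livers, at 26.8 to 34.0 CPM of *Ndufa12* and 9.12 to 16.7 CPM of *Nedd1*, overlapped with the second series for *Ndufa12* and with the first for *Nedd1*.

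The genes that share a pathway or complex with the members were taken from lists. Of 18 genes of base excision repair and active demethylation, 13 to 17 were tested in each genotype comparison. Leaving out *Tdg*, which was chosen on these comparisons, none passed the adjusted threshold in any of the 6. The median log2 fold change of the others lay between -0.10 and 0.09, against -0.01 to 0.02 over all genes. *Mutyh*, a glycosylase for adenine opposite oxidised guanine, came nearest among them in WAT (log2 fold change -1.09, SE 0.28, edgeR adjusted p 0.977). *Lig3*, the ligase of the same pathway, had values of 0.28 (SE 0.13) in Cort livers and -0.28 (SE 0.12) in 1 h Dex livers, with edgeR adjusted p of 0.515 and 1.00.

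All 36 nuclear genes of complex I on the list were tested in each comparison, and none passed in either direction. Without *Ndufa12*, 29 of 35 were below 0 in Cort livers and 33 of 35 in untreated livers, with medians of -0.06 and -0.24, against 0.00 and -0.01 over all genes. With the library series as a covariate, 24 of 35 were below 0 in untreated livers and the median was -0.02. Without that term, of these 35, 6 and 1 had an unadjusted p under 0.05 (9.84% and 3.63% of all genes), such as *Ndufa1* (-0.28, SE 0.08, edgeR adjusted p 0.279) and *Ndufb6* (-0.35, SE 0.15, edgeR adjusted p 0.965). In muscle 18 of the 35 were above 0, with a median of 0.01, where *Ndufa12* had -0.40. Of the NF-Y partners, *Nfya* had a log2 fold change of 0.08 (SE 0.13) and *Nfyc* of -0.05 (SE 0.09) in untreated livers, where *Nfyb* was lower. Of the γ-tubulin ring genes other than *Nedd1*, all 9 tested in muscle were below 0, with a median of -0.05, and none passed. *Abtb2*, a relative of *Btbd11*, had 0.57 (SE 0.14) in Dex livers and 0.40 (SE 0.14) in muscle (edgeR adjusted p 0.999 and 1.00).

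The likeness of patterns was measured over the 39 libraries, as Pearson's r of log2 CPM centred within each experiment, among 14948 genes. These points share libraries, depth and genotype groups, so r is a description. Among the members, *Tdg* and *Gm9855* had r = -0.89, *Gm9855* and *Gm15920* r = 0.79, *Gm9855* and *Btbd11* r = -0.82, and *Gm15920* and *Ndufa12* r = 0.21. The genes outside the list most like *Gm9855* were *Vezt* (-0.73), *Rfx4* (-0.71), *Mon1a* (-0.70), *Gabra3* (0.69) and *Ikbip* (0.66), of which *Vezt*, *Rfx4* and *Ikbip* lie on chromosome 10 at 13.6, 4.41 and 10.7 Mb from *Tcf3*. For *Tdg* they were *Gabra3* (-0.64), *Thsd4* (-0.63), *H2-Ab1* (-0.62), *Ikbip* (-0.62) and *Cd74* (-0.61).

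For *Gm15920* the nearest patterns were those of *Vezt* (-0.76), *H2-Eb1* (0.72), *Cd74* (0.70), *Lta4h* (-0.68) and *H2-Aa* (0.68). *Vezt* and *Lta4h* lie at 13.6 and 13.0 Mb from *Tcf3*, and *Ndufa12* at 13.8 Mb. The others encode parts of the class II antigen presentation machinery. *Vezt* had 11.7 to 22.9 CPM in the untreated E47KO livers, and its highest value, 22.9 CPM, was that of replicate 2, the library with 0.723 CPM of *Gm15920*. In the 1 h Dex livers *Vezt* had 20.4 CPM in the E47fl/+ control and 10.6 to 12.6 CPM in the other 5 libraries. *Ndufa12* was most like genes of other chromosomes, *Sod1* (0.83), *Tatdn1* (0.83), *Psma4* (0.82), *Ndufs4* (0.82) and *Jtb* (0.81).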

How the data were processed

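RNA-seq counts of 39 libraries were used. Per the methods and the submitters' notes, the authors mapped reads to mm10 and counted reads per gene with STAR 2.4.2a, and HTSeq is also named. The deposited values are raw counts per gene and library, not normalized or pooled. The unstranded count column, which all 39 libraries have, was used. Rows that name no gene made up 20.8% to 36.8% of a file's entries and were left out. Tables of the authors' own DESeq2 comparisons were not used.

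Here genes were tested with edgeR 4.0.16 (quasi-likelihood, TMM, filterByExpr, default prior count, Benjamini-Hochberg over all genes tested, threshold 0.05). There was 1 fit per genotype comparison, with joint fits for tissues and treatments. A prior count of 2 was used only for log2 levels in the check of replicate numbers. Alternatives were DESeq2 1.42.0, RLE scaling, no filter, the strand column, a replicate block, cohort and library series as covariates, limma 3.58.1 with the mouse as a block, and leaving out each library. Copies were aligned to GENCODE vM21 transcripts. Named genes were the members, up to 3 neighbours within 20 Mb of *Tcf3* per global comparison with the largest fold change (unadjusted p under 0.05, libraries apart), the 5 genes most like each copy and source, and list genes passing or nearest to passing. Members and lists were chosen with earlier results of these data known. 1 of the B cell markers fixed with the design is not reported here and was left out of the sums. Simulated counts were used to test the fits. Nothing in the labels says whether replicates within a group were prepared apart, so p-values measure the spread between libraries. Replicates differed by more than counting noise (chi-square per degree of freedom of at least 15.9), so none was counted as a duplicate.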

Additional observations from a re-analysis of the deposited data

Results flagged for a closer look

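5 values stood out. *Gm15920* in WT Cort liver replicate 2 had 4.83 CPM, far from the other 3 libraries of its group at 0.208 to 0.458 CPM. *Ndufa12* in E47KO Cort liver replicate 1 had 28.2 CPM, below the other 3 at 33.4 to 34.0 CPM. *Gm9855* in WT Cort liver replicate 4 had 0.026 CPM, which is 1 count where the other 3 libraries had 0. Of 28 sets of 4 to 6 libraries checked, 3 were marked. Chance marks about 1 in 20 sets of normally spread values. That rate does not hold for *Gm9855*, where 1 count beside 3 libraries at 0 is always marked.

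The E47KO libraries of *Ndufa12* lay above WT in Dex liver and below WT in Dex muscle and Dex WAT. The difference of the genotype effect was 0.73 (SE 0.21) against muscle and 0.58 (SE 0.23) against WAT on the log2 scale. Both are a description, as they are built from the comparisons that chose the members, and neither passed edgeR's quasi-likelihood test over all genes. In Dex liver the nearest libraries stood at 46.6 CPM in E47KO and 45.9 CPM in WT, and the log2 fold change of 0.32 became 0.14 when WT replicate 1 was left out and 0.52 when WT replicate 2 was. *Gm15920* took 17.6% to 20.4% of the pair's counts in E47KO Dex liver, 25.7% to 26.7% in E47KO muscle, and 17.2% and 31.6% in E47KO WAT.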

How the results depend on the processing

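The directions of *Tdg*, *Gm9855*, *Gm15920* and *Btbd11* in the 5 global experiments were those of the values reported under every alternative run. *Ndufa12*, *Nfyb* and *Nedd1* changed sign in some alternatives where their reported values lay between -0.16 and 0.05. Elsewhere in these experiments they kept it, as *Nedd1* did in muscle (-1.05 to -0.75) and *Nfyb* in untreated livers (-0.49 to -0.38). With DESeq2 the count of genes called was 24 in Dex livers, 270 in Cort livers, 11 in untreated livers, 37 in WAT, 93 in muscle and 6 in 1 h Dex livers. For the difference of effects it was 38 (liver and muscle), 6 (liver and WAT, *Tdg* among them) and 14 (Cort and untreated). With no filter on low counts these were 62, 13, 8, 6, 37 and 1, with 12 and 3 for the tissue differences. With the replicate block 0 genes were called in Dex livers, 29 in Cort, 2 in untreated livers and 1 in muscle. With the cohort as a covariate it was 0 in Dex livers, 67 in Cort livers, 5 in untreated livers, 0 in WAT and 4 in muscle. How the animals were divided into cohorts is not given here, so these counts describe that setting only. Not every same-numbered pair correlated above 0.1 in its deviations (-0.28 to 0.64 over all pairs), so the number was not taken as a pairing. No paired analysis was possible in WAT because the groups share only 1 replicate number. Leaving out each library in turn gave 0 to 7 calls in Dex livers (7 without WT replicate 1), 1 to 6 in Cort livers, 3 to 4 in untreated livers, 0 to 333 in WAT (333 without E47KO replicate 3), 1 to 8 in muscle (8 without WT replicate 2), 0 to 1 in 1 h Dex livers and 0 to 38 for the difference of effects between liver and muscle (38 without WT muscle replicate 1). Where an arm kept 1 library, it is assumed to vary like the others. The value of *Btbd11* between Cort and untreated livers became 0.04 with the strand column. The causes were not tested. *Btbd11*, at 0 to 40 counts per library, is the member that depth limits most.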
